A study of Mus musculus with 10 samples.

Results

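Transcripts of the Wnt system were examined in the mouse hippocampus after photochemical ablation of meningeal lymphatic vessels, and in controls. The members were the protein-coding rows whose symbol named a Wnt ligand, a Frizzled receptor, an R-spondin, Lgr4 to Lgr6, Lrp5 or Lrp6, a Dickkopf (Dkk1 to Dkk4), a secreted Frizzled-related protein (Sfrp1 to Sfrp5), Axin1, Axin2, Znrf3 or Rnf43. They numbered 49 of the 27343 rows of the table, and Rspo4 was not analysed here. A filter on low counts left 36 members for testing, and the other 13 are given by their counts. Symbols alone chose them, but Rspo3 was already known from an earlier look at these data to have risen, so its rise is not independent support.

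All mice were wild-type C57BL/6J males aged 2 months. The 5 Visudyne mice received verteporfin, a photosensitizer, into the cisterna magna, and the 5 vehicle mice received the carrier. Per the labels' protocol and the series' design, 689 nm red light was then shone above the intact skull, the procedure was done again after 2 weeks, and the mice performed the Morris water maze (MWM) another 2 weeks later. The whole hippocampus was taken 3 days after the maze, so every mouse of both groups had been through surgery and learning, and no group without either was examined here. The tissue is a mixture of cells, and in such bulk RNA fewer cells of a type and less RNA per cell cannot be told apart.

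Wnt proteins are lipid-modified ligands that bind a Frizzled receptor together with Lrp5 or Lrp6. Binding disables a cytoplasmic complex built on Axin and Apc that otherwise marks β-catenin for breakdown, and β-catenin then acts with Tcf and Lef factors on target genes. The ubiquitin ligases Znrf3 and Rnf43 remove Frizzled from the membrane, and R-spondins bound to Lgr4, Lgr5 or Lgr6 remove those ligases, which strengthens the signal. In the adult hippocampus the pathway is known for its part in dentate gyrus neurogenesis and in synapse maintenance.

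Total counts were 24752362 to 41073906 per library, of which 15112 to 27219 fell on the members. The libraries differed in how counts changed with the GC content of a gene. The slope was -0.51 to 0.011 on the log2 scale per 10 percentage points of GC in the Visudyne libraries and -0.017 to 0.39 in the vehicle libraries, with Visudyne 5 the lone Visudyne library above the lowest vehicle library. Transcripts of mt-Rnr2, the mitochondrial 16S ribosomal RNA, took 33.6% to 39.7% of the counts with Visudyne and 32.2% to 35.7% with vehicle, and protein-coding genes 49.2% to 55.8% and 54.5% to 58.3%. The part of these shares in the members' values was not tested. Choroid plexus transcripts set 2 libraries apart: the summed level of 8 markers was 423.4 CPM (counts over library size, on the usual scale) in Visudyne 3 and 304.1 CPM in Visudyne 5, against 23.0 to 29.8 CPM in the other Visudyne libraries and 22.8 to 33.4 CPM with vehicle, and 0 of the 8 were at 0 throughout. Of 8 ventral hippocampus markers, 5 were called higher and 0 lower by the test described with the members, where 8.98% of all genes were called higher and 11.5% lower. Their sum, most of it Cadm2, was 606.2 to 990.4 CPM with Visudyne and 587.4 to 678.8 CPM with vehicle. Of 7 tested oligodendrocyte markers 0 were called higher and 4 lower (Mbp, Mog, Cnp and Opalin). The groups of these 4 did not overlap, beside 7.22% of all tested genes with every Visudyne library below vehicle. The summed level of the list did overlap, at 2180 to 2602 CPM with Visudyne and 2258 to 3038 CPM with vehicle. Of 8 mural cell markers 1 was called higher (Rgs5) and 3 lower (Pdgfrb, Acta2 and Vtn). Their sum, most of it Rgs5, was 114.1 to 124.6 CPM with Visudyne and 98.1 to 117.2 CPM with vehicle. The fold was above 1 in 1 of the 8 and below it in 7, at a median log2 fold change of -0.54. Of 6 tested thalamus markers 2 were called higher (Lhx9 and Calb2) and 0 lower. The fold was above 1 in 4 of the 6 and below it in 2, Prkcd and Rgs16. Prkcd was just short of a call, at a log2 fold change of -0.50 (adjusted p = 0.0501, edgeR), and Rgs16 was at -0.38. The summed level of that list was 59.9 to 76.6 CPM with Visudyne and 50.8 to 62.4 CPM with vehicle. Of 8 meningeal fibroblast markers 1 was called higher (Dcn) and 1 lower (Slc6a13). The part of these cell types and of thalamus tissue in the members' results was not tested. Hippocampal markers were present in every library, with those of dentate granule cells summing to 356.7 to 621.0 CPM and those of CA1 and CA3 pyramidal cells to 338.9 to 457.6 CPM.

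Of the 36 tested members, 3 rose in Visudyne and 0 fell: Rspo3, Lgr5 and Fzd3. The test was edgeR's quasi-likelihood test with Benjamini-Hochberg adjustment over all genes, called at an adjusted p under 0.05. That is 8.33% of the members called higher, beside 8.98% of all 15938 tested genes, and 0% called lower beside 11.5% of all genes (20.5% called in either direction). The share of members that rose was thus close to the background. Among the 33 members not called, 7 had an unadjusted p under 0.05, which were Axin1, Wnt10a, Fzd7, Rspo2, Axin2, Wnt2 and Lgr4. With the 3 called members that is 27.8% of the members at an unadjusted p under 0.05 in edgeR, beside 39.8% of all tested genes. The median log2 fold change was 0.12 over the members and 0.010 over all tested genes. In 22 members the fitted fold was above 1 and in 14 below it, beside 8137 and 7801 of all tested genes. Every fold is Visudyne over vehicle.

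These counts moved with the analysis, for the members and for all genes alike. Without Visudyne 3 the call remained for 1 member, Rspo3, where 0.136% of all genes were called higher and 0.0310% lower (0.167% in all), and without vehicle 6 for 0 members, where 0.0311% were called on either side (0.0622% in all). With library sizes from total counts, 1 member was called higher and 5 lower (Axin1, Axin2, Dkk3, Wnt10a and Wnt2), beside 1.23% and 24.5% of all genes (25.7% in all). That scaling moved the median of all genes to -0.19 and of the members to -0.088. DESeq2 called 5 members higher and 1 lower, beside 12.7% and 15.4% (28.1% in all), and limma-voom 3 and 1, beside 9.29% and 12.2% (21.5% in all). With the GC trend of each library removed, 2 members were called higher and 0 lower, beside 1.29% and 1.78% (3.07% in all), and with each library's GC slope entered as a covariate 0 members were called, beside 0% of all genes (5 members and 1050 genes at an unadjusted p under 0.05, edgeR). Without the 2 libraries high in choroid plexus markers it was 3 higher and 1 lower, beside 7.81% and 10.6% (18.4% in all).

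**Figure D1:**
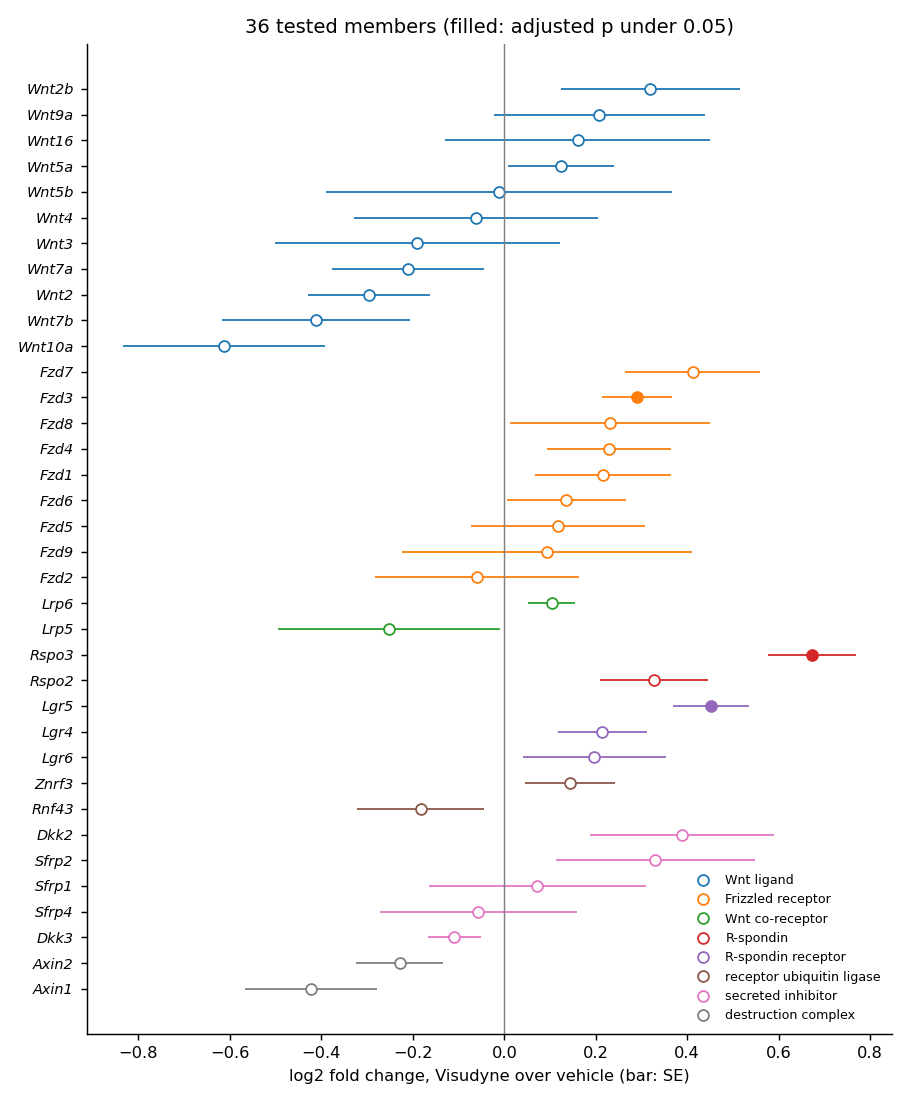
Log2 fold change (x axis, Visudyne over vehicle) with its SE for the 36 tested members (y axis), coloured by role, filled where the adjusted p was under 0.05. Rspo3, Lgr5 and Fzd3 are the filled points, 8 of 9 Frizzled genes lie right of 0 and both Axin genes lie left of it. Of all 15938 tested genes, 8137 had a fold above 1. These sides moved with the analysis: Fzd2, Fzd5, Fzd6 and Fzd9 were below 0 with total counts. Axin2 was at 0.062 with the GC trend removed and Axin1 at 0.059 with the GC slope as covariate.

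The R-spondins amplify Wnt signalling from outside the cell. Rspo3 (ENSMUSG00000019880, GRCm38 chromosome 10, 29452416 to 29535867) stood at 18.7, 16.6, 19.2, 19.5 and 18.2 CPM in Visudyne 1 to 5 and at 11.1, 14.2, 11.6, 9.62 and 11.3 CPM in vehicle 6 to 10. The groups did not overlap: the lowest Visudyne library, number 2, lay above the highest vehicle library, number 7. Rspo3 averaged 18.4 ± 1.14 CPM with Visudyne and 11.6 ± 1.66 CPM with vehicle (± SD, 5 mice per group). The log2 fold change was 0.67, with an SE of 0.096 (adjusted p = 0.0154, edgeR). With each library's GC trend removed the log2 fold change was 0.50 and Rspo3 was still called (adjusted p = 0.0244, edgeR), and it was called in 9 of the 10 fits that each left out 1 library, failing without vehicle 6 (adjusted p = 0.0597). With each library's slope on GC content as covariate it was 0.55 (adjusted p = 0.53, edgeR), and with the GC trend removed and vehicle 6 left out it was 0.50 (adjusted p = 0.09).

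Rspo2, a close relative of Rspo3, was at 14.9, 13.2, 19.1, 16.8 and 16.9 CPM with Visudyne and at 11.3, 16.2, 12.7, 12.9 and 11.4 CPM with vehicle. All 5 Visudyne libraries lay above the vehicle mean, but vehicle 7 lay within the Visudyne range. Its log2 fold change of 0.33 (SE 0.12) did not pass (adjusted p = 0.0638 by edgeR, 0.0339 by DESeq2, and 0.045 by edgeR without vehicle 7) and was 0.22 without Visudyne 3 and Visudyne 5. Vehicle 7 was the highest vehicle library for both R-spondins. Rspo1 held 52 counts over all 10 libraries and was not tested.

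Lgr5 (ENSMUSG00000020140, chromosome 10, 115450311 to 115587780) encodes an R-spondin receptor best known as a stem cell marker and is itself a Wnt target in several tissues. Its levels were 6.97, 6.30, 7.34, 7.54 and 6.91 CPM in Visudyne 1 to 5, and 4.80, 5.28, 5.01, 5.37 and 5.20 CPM in vehicle 6 to 10. The groups did not overlap, as in 2 of the 36 members above vehicle and 0 below it, where 5.25% and 7.22% of all tested genes were so separated. Lgr5 averaged 7.01 ± 0.474 CPM with Visudyne and 5.13 ± 0.226 CPM with vehicle (± SD, 5 mice per group). The log2 fold change was 0.45, with an SE of 0.083 (adjusted p = 0.0214, edgeR). The call was lost without Visudyne 3 (adjusted p = 0.0636 by edgeR) or vehicle 6 (0.0696), and with the GC trend removed the log2 fold change was 0.30 (adjusted p = 0.0532 by edgeR). It was also lost with library sizes from total counts, at 0.25 (adjusted p = 0.113 by edgeR), and with 1 surrogate variable, at 0.45 (adjusted p = 0.118).

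The other R-spondin receptors were less separated. Lgr4, the most abundant of them, was at 72.7, 63.1, 72.8, 64.2 and 51.0 CPM with Visudyne and at 56.2, 61.0, 58.7, 47.8 and 55.3 CPM with vehicle. Visudyne 5 lay below 4 of the vehicle libraries, and the log2 fold change of 0.21 (SE 0.098) did not pass (adjusted p = 0.123 by edgeR; 0.0216 without Visudyne 5). Lgr6 was at 3.54 ± 0.398 CPM with Visudyne and 3.09 ± 0.688 CPM with vehicle. For the ligases on which this axis acts, Znrf3 was at 14.7 ± 1.92 and 13.3 ± 1.16 CPM and Rnf43 at 1.41 ± 0.150 and 1.60 ± 0.128 CPM with Visudyne and vehicle (± SD, 5 mice per group), and neither was called.

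**Figure D2:**
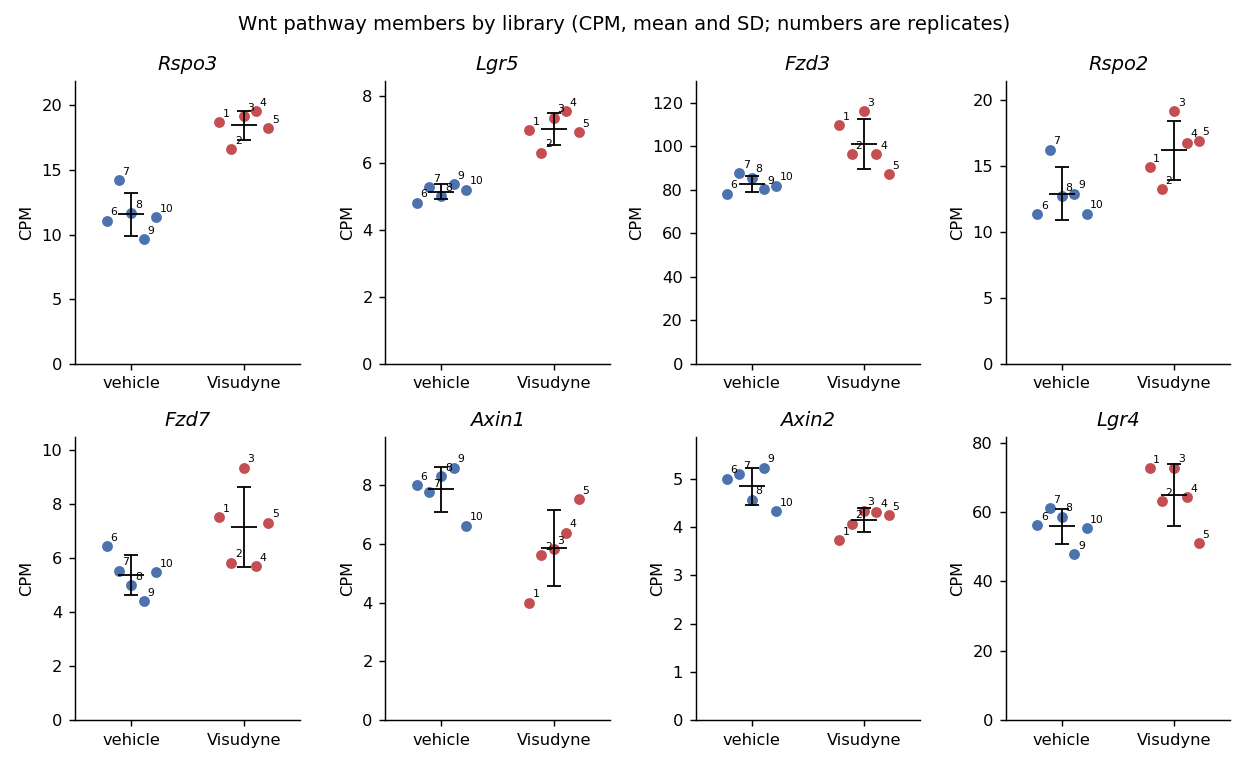
Level in CPM (y axis) of 8 members in each library, as numbered points, 5 in each group, with black marks for mean and SD. Rspo3 and Lgr5 separate the groups, at means of 18.4 against 11.6 CPM and 7.01 against 5.13 CPM, while the other 6 genes overlap.

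The Frizzled receptors bind Wnt ligands directly. Fzd3 (ENSMUSG00000007989, chromosome 14, 65192449 to 65262463), known for its part in axon tract formation through the planar cell polarity branch, was at 109.8, 96.3, 116, 96.3 and 87.1 CPM with Visudyne and at 78.2, 87.6, 85.6, 80.3 and 81.9 CPM with vehicle. Only Visudyne 5 fell within the vehicle range, just under vehicle 7. Fzd3 averaged 101 ± 11.7 CPM with Visudyne and 82.7 ± 3.84 CPM with vehicle (± SD, 5 mice per group). The log2 fold change was 0.29, with an SE of 0.077 (adjusted p = 0.0305, edgeR). The call was lost in 5 of the 10 fits without 1 library (without Visudyne 1, 3 or 4 or vehicle 6 or 9), and with the GC trend removed the log2 fold change was 0.026 (adjusted p = 0.857 by edgeR). With library sizes from total counts it was 0.077 (adjusted p = 0.305), so the call was lost there too. Its transcript had the lowest GC content of the tested members, 40.3%.

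Fzd7 was at 7.50, 5.82, 9.36, 5.70 and 7.30 CPM with Visudyne and at 6.44, 5.53, 4.98, 4.40 and 5.47 CPM with vehicle. Visudyne 3 was its highest library, and Visudyne 2 and 4 lay below vehicle 6. The log2 fold change of 0.41 (SE 0.15) did not pass by edgeR (adjusted p = 0.063) or limma-voom (0.0695) but was called by DESeq2 (0.0356). It was 0.67 with the GC trend removed (adjusted p = 0.0519) and 0.24 without Visudyne 3 and Visudyne 5. Fzd4, a receptor of brain endothelium that was singled out after its values were seen, stood at 14.7 and 13.0 CPM in Visudyne 3 and 5, at 8.85 to 10.2 CPM in the other Visudyne libraries and at 8.92 to 10.6 CPM with vehicle. Those are also the libraries high in choroid plexus markers, and without them its log2 fold change went from 0.23 to -0.017. The 2 libraries left out were its highest, so the fold had to fall without them. The part of choroid plexus tissue in Fzd4 was not tested. Fzd1 was at 5.16 ± 0.849 CPM with Visudyne and 4.43 ± 0.789 CPM with vehicle (± SD, 5 mice per group). Of the other 5 tested Frizzled genes, Fzd2, Fzd5, Fzd6, Fzd8 and Fzd9, 0 were called, with log2 fold changes from -0.059 to 0.23.

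Of the co-receptors, Lrp6 was at 74.3 ± 3.66 CPM with Visudyne and 69.1 ± 1.56 CPM with vehicle, a log2 fold change of 0.10 (SE 0.051) that did not pass. Lrp5 was much scarcer, at 1.10 ± 0.257 and 1.33 ± 0.429 CPM (± SD, 5 mice per group). Per kilobase of exon, Lrp6 stood at 5.06 and Lrp5 at 0.136 CPM per kilobase in vehicle.

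Among the 11 tested Wnt ligands 0 were called, by edgeR at an adjusted p under 0.05, and 2 of them, Wnt10a and Wnt2, had an unadjusted p under 0.05. Their median log2 fold change was -0.062. Wnt2, which was at 1.92, 2.39, 2.55, 2.01 and 1.90 CPM with Visudyne and 2.60, 2.31, 2.58, 2.98 and 2.76 CPM with vehicle, showed -0.30 as its log2 fold change, with an SE of 0.13 (adjusted p = 0.118, edgeR). Vehicle 7 was the vehicle library within the Visudyne range, and the other 4 lay above all of Visudyne. Wnt7a and Wnt7b, the ligands of brain vessel and barrier development, were at 2.24 ± 0.485 and 4.09 ± 1.16 CPM with Visudyne and at 2.61 ± 0.348 and 5.45 ± 1.16 CPM with vehicle (± SD, 5 mice per group). Wnt7b was lowest in Visudyne 1, at 2.35 CPM, the library with the steepest GC slope, and highest in vehicle 9, at 7.17 CPM, which had the steepest slope of the opposite sign. With the GC trend removed its log2 fold change went from -0.41 to 0.062. The part of GC content in the Wnt7b values was not tested. Wnt5a, a ligand known chiefly for β-catenin-independent signalling, was at 10.4 ± 1.65 CPM with Visudyne and 9.52 ± 1.02 CPM with vehicle. Wnt10a, with the richest transcript in GC of the tested members at 63.8%, showed -0.61 as its log2 fold change, with an SE of 0.22 (adjusted p = 0.0627, edgeR) at means of 0.555 and 0.847 CPM. Wnt2b went the other way, at 1.13 ± 0.116 CPM with Visudyne and 0.897 ± 0.227 CPM with vehicle. Its log2 fold change of 0.32 did not pass (adjusted p = 0.239 by edgeR, 0.288 by DESeq2 and 0.2 by limma-voom). It was called with the GC trend removed (log2 fold change 0.71, adjusted p = 0.0486 by edgeR), where it and Rspo3 were the 2 members called, beside 1.29% of all genes called higher. The 8 ligands too scarce to test were Wnt1, Wnt3a, Wnt6, Wnt8a, Wnt8b, Wnt9b, Wnt10b and Wnt11, with from 2 counts over all libraries for Wnt1 to 49 for Wnt9b. The tested ligands not yet described, Wnt3, Wnt4, Wnt5b, Wnt9a and Wnt16, had log2 fold changes from -0.19 for Wnt3 to 0.21 for Wnt9a, and 0 of these 5 had an unadjusted p under 0.05 in edgeR.

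Of the 5 tested secreted inhibitors 0 were called, by edgeR at either p, adjusted or not, under 0.05. Dkk3, a Dickkopf relative abundant in hippocampal neurons, was at 232 to 264 CPM with Visudyne and 246 to 284 CPM with vehicle, and its log2 fold change was -0.11, with an SE of 0.058 (adjusted p = 0.179, edgeR). It was the most abundant member per length, at 79.3 CPM per kilobase of exon in vehicle, where Lgr4 came next at 9.48, then Fzd3 at 6.46, Lrp6 at 5.06, Rspo3 at 3.74 and Rspo2 at 2.52. Lgr5 stood at 0.50 and Lgr6 at 0.451. Sfrp1 was at 2.62 ± 0.783 CPM with Visudyne and 2.48 ± 0.638 CPM with vehicle, and Sfrp2 at 0.556 ± 0.125 and 0.443 ± 0.0452 CPM (± SD, 5 mice per group). Dkk2, which binds Lrp5 and Lrp6, exceeded the mean of vehicle in each of the 5 Visudyne libraries, at a log2 fold change of 0.39 (SE 0.20) that did not pass. Sfrp4 was at 0.599 ± 0.111 and 0.629 ± 0.123 CPM. Dkk1, Dkk4 and Sfrp5 held 42, 31 and 9 counts in all and, with Fzd10 at 72 counts, were not tested.

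**Figure D3:**
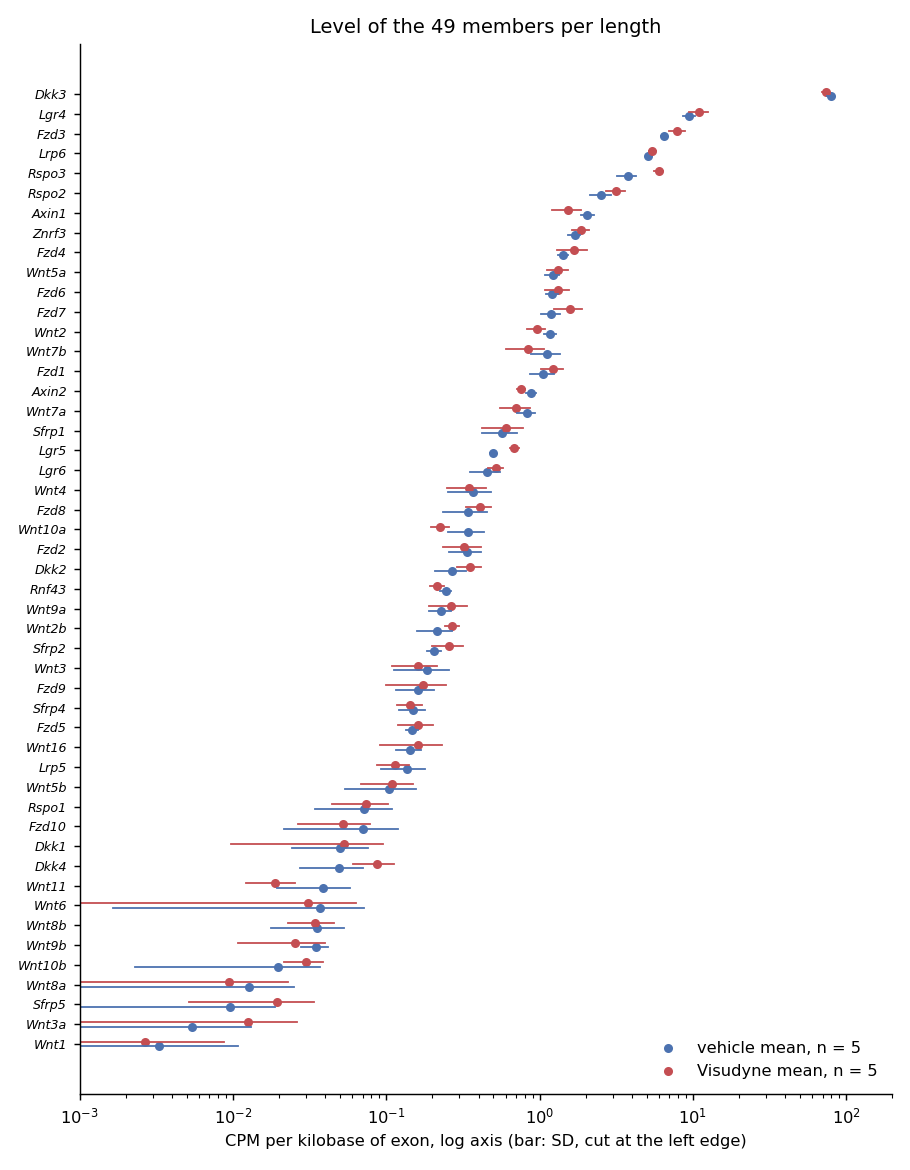
Level per length of the 49 members in CPM per kilobase of exon (x axis, log scale), as group means with SD, 5 libraries per group, ordered by the vehicle mean. Dkk3, at 79.3 CPM per kilobase in vehicle, lies far to the right, and the 13 genes that were not tested lie at the bottom.

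Axin1 and Axin2 are scaffolds of the complex that marks β-catenin for breakdown, and Axin2 is also a widely used Wnt target. Axin1 was at 3.99, 5.60, 5.81, 6.38 and 7.51 CPM with Visudyne and at 8.0, 7.76, 8.31, 8.60 and 6.62 CPM with vehicle, overlapping through Visudyne 5 and vehicle 10. Its log2 fold change of -0.42 (SE 0.15) was short of the threshold (adjusted p = 0.0545 by edgeR, 0.0249 by DESeq2 and 0.0444 by limma-voom) and was -0.056 with the GC trend removed. Axin2 was at 3.74, 4.07, 4.34, 4.31 and 4.25 CPM with Visudyne and at 5.01, 5.10, 4.58, 5.24 and 4.33 CPM with vehicle. All 5 Visudyne libraries lay below the vehicle mean, with vehicle 10 just under Visudyne 3. Axin2 showed -0.23 as its log2 fold change, with an SE of 0.096 (adjusted p = 0.0975, edgeR), which was 0.062 with the GC trend removed.

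Tcf and Lef factors bind a short core motif, which was searched for in the members' promoters. RefSeq promoters on GRCm38.p6 were found for 30 of the 49 members, with Rspo3, Lgr5 and Fzd3 not among them. The core was written as CTTTGA or CTTTGT on both strands in the 250 bases before each start. It was held by 7 of the 34 member promoters (20.6%) and by 27.6% of all 32851 promoters. Of the 10 members with an unadjusted p under 0.05, 4 had a promoter entry, and all 4 are shown, 5′ to 3′ on the strand of the gene, with the motif in capitals.
Axin2, chr11:108920099-108920348: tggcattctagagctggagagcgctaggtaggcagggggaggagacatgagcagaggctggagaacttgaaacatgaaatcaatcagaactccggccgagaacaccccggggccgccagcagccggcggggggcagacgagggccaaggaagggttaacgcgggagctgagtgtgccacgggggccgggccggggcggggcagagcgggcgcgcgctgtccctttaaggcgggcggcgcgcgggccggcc
Fzd7, chr1:59481897-59482146: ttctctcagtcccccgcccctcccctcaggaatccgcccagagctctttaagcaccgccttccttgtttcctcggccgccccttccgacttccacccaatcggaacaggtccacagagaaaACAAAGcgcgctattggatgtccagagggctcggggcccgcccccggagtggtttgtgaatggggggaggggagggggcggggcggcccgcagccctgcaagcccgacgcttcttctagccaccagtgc
Lgr4, chr2:109917397-109917646: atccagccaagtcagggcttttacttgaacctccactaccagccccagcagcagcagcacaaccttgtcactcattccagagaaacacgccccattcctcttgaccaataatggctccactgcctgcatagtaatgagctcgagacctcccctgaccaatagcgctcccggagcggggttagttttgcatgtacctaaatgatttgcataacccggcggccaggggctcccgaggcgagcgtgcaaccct
Wnt2, chr6:18030446-18030695: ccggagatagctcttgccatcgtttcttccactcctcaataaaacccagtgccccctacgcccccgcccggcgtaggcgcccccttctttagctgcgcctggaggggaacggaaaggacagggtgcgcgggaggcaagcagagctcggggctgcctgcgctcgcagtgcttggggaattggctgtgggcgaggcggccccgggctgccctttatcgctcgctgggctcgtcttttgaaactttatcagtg
The Fzd7 window held 1 copy, on the minus strand, beginning 129 bases before the start, and the other 3 windows held 0. Of the 4, Fzd7 and Lgr4 had a fold above 1 and Axin2 and Wnt2 below it, so 0 copies came with both directions. Wnt2 lies on the minus strand of its chromosome and the others on the plus strand. The windows of Axin2, Fzd7, Lgr4 and Wnt2 had 69.2%, 65.2%, 55.6% and 63.6% GC, where the median over all promoters was 52.4%.

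Fold change and transcript GC content moved together within the members. The 3 that rose had transcripts of 40.3% to 44.7% GC, against a median of 52.6% over the 36 tested members. The rank correlation of GC content with log2 fold change was -0.51 across the 36 members and -0.67 across 15829 genes. These are descriptions across genes that share the same 10 libraries. With each library's trend removed it was 0.31 in the members. Of the 3 called members, 1 (Rspo3) was then still called.

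**Figure D4:**
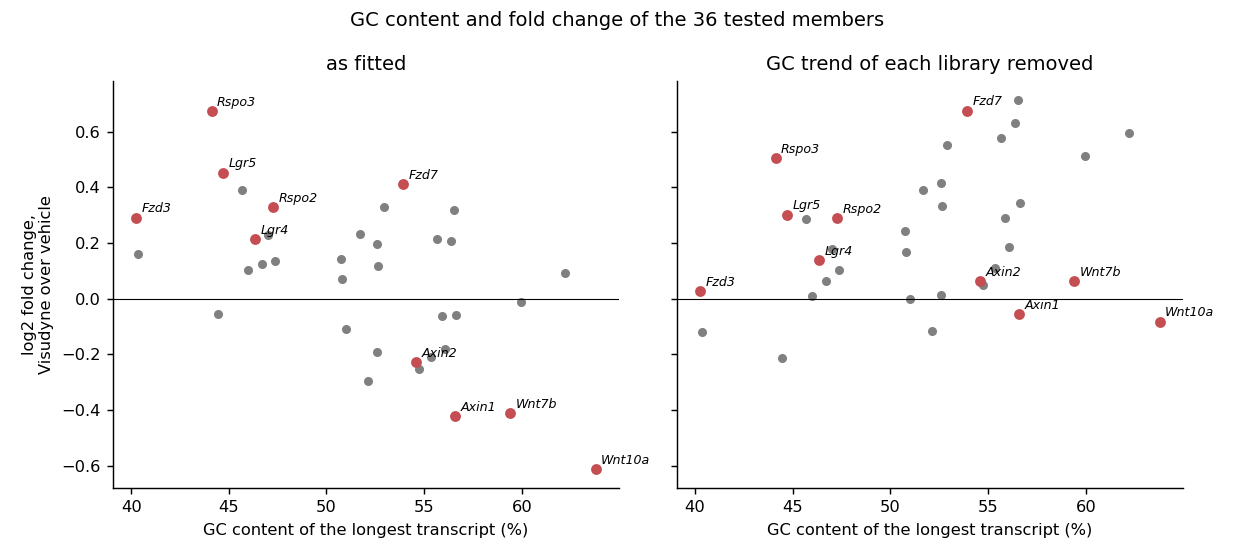
Log2 fold change (y axis, Visudyne over vehicle) against the GC content of the longest transcript in percent (x axis) for the 36 tested members, before (left) and after (right) removal of each library's GC trend. Before removal the GC-rich Wnt10a and Wnt7b lie low, at -0.61 and -0.41, while Rspo3 lies at 0.67 and then at 0.50.

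Beyond the members, 121 other genes of the pathway had a row and 113 were tested. Of these, 15 were called higher and 16 lower, or 13.3% and 14.2%, beside the 8.98% and 11.5% of all genes. Without Visudyne 3 or vehicle 6, 0 were called in either direction, and without vehicle 9, 1 higher and 0 lower. With total counts 3 were called higher and 30 lower, or 2.65% and 26.5%, beside 1.23% and 24.5% of all genes. After removal of the GC trend it was 3 and 4, or 2.65% and 3.54%, beside 1.29% and 1.78%. Their median log2 fold change was 0.024. The lists were written with earlier results of these data known, and their counts give no independent support.

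Of the 28 genes of the cytoplasmic relay, the longest of the lists, 6 were called higher and 6 lower (42.9% in all, beside 20.5% of all genes), with a median log2 fold change of -0.017. β-catenin itself (Ctnnb1) was at 84.6, 121, 119, 125 and 137 CPM with Visudyne and at 173, 156, 153, 178 and 137 CPM with vehicle. Vehicle 10 lay just above Visudyne 5, so the groups met without overlapping. Ctnnb1 fell by 0.45 on the log2 scale (SE 0.115, adjusted p = 0.0289 by edgeR; -0.38 with the GC trend removed, adjusted p = 0.0491; -0.0043 with the slope on GC content as covariate). The call was lost without Visudyne 3, vehicle 6 or vehicle 9 (adjusted p up to 0.0772). Apc, the scaffold that holds β-catenin for breakdown, rose from 398 ± 19.2 to 491 ± 43.3 CPM, and the kinase gene Gsk3b rose from 189 ± 8.29 to 229 ± 23.3 CPM. Its paralog Gsk3a fell from 32.2 ± 3.83 to 22.5 ± 3.46 CPM (± SD, 5 mice per group). Gsk3a had a transcript of 59.8% GC and Gsk3b one of 46.1%, and with the GC trend removed none of Apc, Gsk3a and Gsk3b was called. Usp34, a deubiquitinase that acts on Axin, rose 1.34-fold and the casein kinase gene Csnk1g1 rose 1.22-fold, and with the GC trend removed both calls were lost (adjusted p = 0.126 and 0.097, edgeR).

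Outside the cell, 4 of 11 tested secreted modulators were called lower and 1 higher (45.5% in all, beside 20.5% of all genes). Their median log2 fold change was -0.042. Serpinf1, which encodes pigment epithelium-derived factor, fell from 2.77 ± 0.507 to 1.53 ± 0.411 CPM, and Draxin, a guidance protein that also antagonises Wnt, from 0.373 ± 0.0583 to 0.188 ± 0.0481 CPM. Igfbp4, a binding protein of insulin-like growth factors, was called lower, at 0.791 of its vehicle level. Removal of the GC trend left Serpinf1 called (log2 fold change -0.59, adjusted p = 0.0476, edgeR), while the calls of Draxin (-0.73, adjusted p = 0.139) and Igfbp4 (-0.029, adjusted p = 0.858) were lost. When single libraries were left out, the Draxin call held in 4 of the 10 fits. Frzb, the Frizzled-related protein also named Sfrp3, rose from 19.6 ± 3.34 to 25.3 ± 1.59 CPM (± SD, 5 mice per group). Its groups did not overlap, but the gap between vehicle 10 and Visudyne 3 was small, and the call was lost in most fits without 1 library (adjusted p up to 0.0774 by edgeR) and with the GC trend removed (adjusted p = 0.0519). Sostdc1, a Wnt and BMP antagonist named after its values were seen, reached 15.5 CPM in library Visudyne 3 and 7.80 in Visudyne 5, and stood at 1.63 to 2.61 CPM in the other Visudyne libraries and 1.45 to 2.44 CPM with vehicle. Without those 2 libraries, which were also high in choroid plexus markers, its log2 fold change went from 1.61 to 0.089. They were its highest libraries, so the fold had to fall without them. The part of choroid plexus tissue in Sostdc1 was not tested.

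Of 8 tested genes of ligand secretion 2 rose and 0 fell, or 25% and 0%, beside 8.98% and 11.5% of all genes. The 2 that rose were Tmed5, a cargo receptor of the early secretory pathway, at 1.35-fold, and Gpc4, a glypican, at 1.25-fold. Gpc4 was also called once the GC trend had been removed (log2 fold change 0.42, adjusted p = 0.0344, edgeR), and Tmed5 was not (0.089, adjusted p = 0.582). The Gpc4 call held in 4 of the 10 fits without 1 library and was lost with total counts (0.105, adjusted p = 0.463, edgeR). Porcn, which attaches the lipid to Wnt proteins, was at 5.97 ± 1.39 CPM with Visudyne and 7.89 ± 1.05 CPM with vehicle, and Wls, their carrier to the surface, at 31.9 ± 8.94 and 24.7 ± 4.59 CPM (± SD, 5 mice per group). Neither was called. Among 11 other receptors and co-receptors 1 was called higher and 1 lower, or 9.09% each, beside 8.98% and 11.5% of all genes. Tspan12, a partner of Fzd4, rose 1.24-fold and Kremen1, a Dickkopf receptor, fell from 5.48 ± 0.463 to 3.96 ± 0.444 CPM. Both calls were lost with the GC trend removed, at log2 fold changes of 0.050 and -0.16 (adjusted p = 0.695 and 0.265, edgeR). In the planar cell polarity branch 1 of 17 genes rose, the kinase gene Mapk8 at 1.17-fold, and 1 fell, Daam2 at 0.672 of its vehicle level. That is 5.88% each, beside the same 8.98% and 11.5% of all genes. Of these 2 calls, that of Daam2 held after removal of the GC trend (adjusted p = 0.0457, edgeR) and that of Mapk8 did not (-0.043 on the log2 scale, adjusted p = 0.705).

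**Figure D5:**
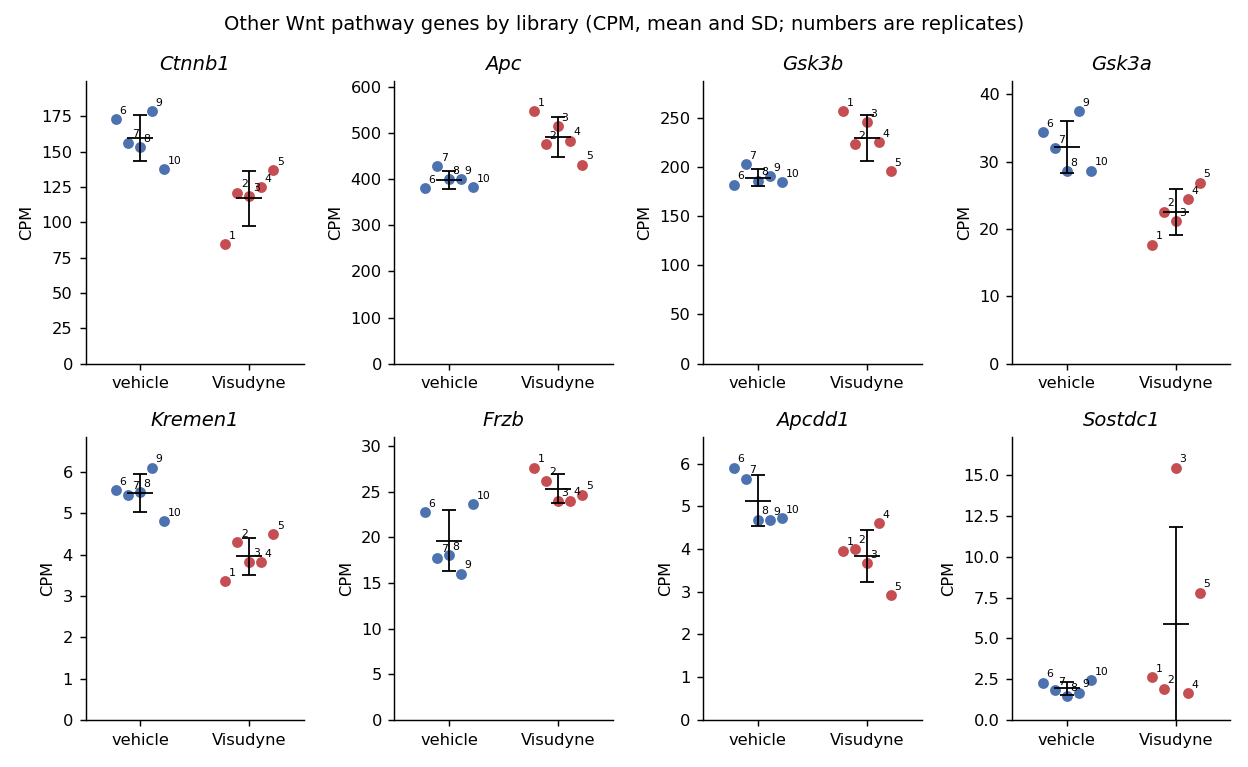
Level in CPM (y axis) of 8 other Wnt pathway genes in each library, as numbered points, 5 in each group, with black marks for mean and SD. Ctnnb1 and Gsk3a lie lower and Apc higher in Visudyne, while Sostdc1 is high only in Visudyne 3 and 5, at 15.5 and 7.80 CPM.

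At the nuclear end of the pathway, 0 of 20 nuclear factors were called higher and 4 lower, or 0% and 20%, beside 8.98% and 11.5% of all genes. The 4 were the chromatin remodeller gene Smarca4 at 0.627 of its vehicle level, the β-catenin antagonist gene Cby1 at 0.565, the coactivator gene Pygo2 at 0.785 and the corepressor gene Aes at 0.719. With the GC trend removed 0 of these 4 were called. Of the factors that carry the signal, the panel held Tcf7l2 and Lef1, and both were scarce and not called. Tcf7l2 was at 2.77 ± 0.608 CPM with Visudyne and 2.35 ± 0.267 CPM with vehicle, and Lef1 at 2.09 ± 0.329 and 2.31 ± 0.372 CPM (± SD, 5 mice per group). Of 21 tested target genes 4 rose and 1 fell, or 19% and 4.76%, beside 8.98% and 11.5% of all genes. Their median log2 fold change was 0.094. Jun, Neurod1, Mycn and Id2 rose 1.20-fold, 1.39-fold, 1.5-fold and 1.24-fold, and removal of the GC trend left Jun and Mycn called. When single libraries were left out, the Jun call held in 7 of the 10 fits and the Mycn call in 2. With total counts neither was called (adjusted p = 0.576 and 0.0698, edgeR). Apcdd1, a Wnt target that inhibits the pathway, was at 0.746 of its vehicle level. Nkd1, a feedback inhibitor used like Axin2 as a readout, was at 1.51 ± 0.169 CPM with Visudyne and 1.88 ± 0.357 CPM with vehicle and was not called.

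The ventral hippocampus markers gave the following values beside those of Rspo3, with the 3 genes picked after their values were seen. The serotonin receptor gene Htr2c was at 66.3 ± 13.7 CPM with Visudyne and 36.9 ± 4.03 CPM with vehicle, Trhr, the thyrotropin-releasing hormone receptor gene, at 15.6 ± 3.92 and 6.85 ± 1.42 CPM, and Nr2f2, a transcription factor gene, at 8.47 ± 2.14 and 4.48 ± 0.763 CPM (± SD, 5 mice per group). They were picked as the 3 of the 8 markers whose groups did not overlap, beside 5.25% of all genes with every Visudyne library above vehicle. The groups of the other 5, Grp, Efnb2, Lypd1, Gpc3 and Cadm2, overlapped, and Lypd1, Gpc3 and Cadm2 were not called. Htr2c and Nr2f2 were highest in Visudyne 3 and 5, the libraries high in choroid plexus markers, at 87.6 and 70.7 CPM and at 11.5 and 9.83 CPM. Trhr was at 16.6 and 18.4 CPM there and at 18.1 CPM in Visudyne 4. Transcript GC was 42.1% for Htr2c, 38.5% for Trhr and 45.3% for Nr2f2, beside a median of 48.6% over all tested genes. The part of either in these 3 genes was not tested. The part of where the hippocampus was cut in the rise of Rspo3 or Lgr5 was not tested.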

How the data were processed

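Hippocampal RNA of 10 mice was sequenced as stranded total RNA, per the labels' protocols. The authors ran FastQC and Salmon on build mm10, per the submitters' processing notes, and deposited 1 table of estimated counts per gene as whole numbers, which was used as it stands. The annotation behind it is not given in the sources used here. Symbols, positions, exon lengths and transcript GC content came from GENCODE M21 (GRCm38), where 27053 of 27343 rows were found. Visudyne was set against vehicle with edgeR 4.0.16 in R 4.3.3 (filterByExpr, TMM library sizes, quasi-likelihood test, two-sided), adjusted over 15938 genes. The SE is the log2 fold change divided by the root of F. CPM use TMM library sizes. Alternatives used DESeq2 1.42.0, limma-voom 3.58.1, sva 3.50.0, a loess trend (span 0.3) on GC content removed through offsets, and each library left out. Members and lists were chosen with earlier results of these data known. Named were called members with a mean of at least 1 CPM (14 at most), a fixed panel, and 4 called genes at most per pathway list. The lowest chi-square per degree of freedom between libraries of 1 group was 6.01, so no library was a repeat of another. The labels number the mice separately, and nothing more shows that they are separate animals, so p-values measure the spread between these samples. Scripts were tested on simulated data.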

Additional observations from a re-analysis of the deposited data

Results flagged for a closer look

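In 3 of 134 sets of 5 libraries, 1 library stood far from the other 4 by Dixon's criterion, where chance gives about 1 in 20. Fzd2 was at 1.76 CPM in Visudyne 3 and at 0.955 to 1.17 CPM in the other Visudyne libraries. Wnt9a was at 0.544 CPM in vehicle 8 and at 0.770 to 0.851 CPM in the other vehicle libraries. Mycn was at 2.87 CPM in Visudyne 5 and at 4.23 to 4.47 CPM in the other Visudyne libraries.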

How the results depend on the processing

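There were 21 alternative settings, and 3 more were chosen after seeing the data. Upper-quartile factors, DESeq2's factors, no filter and leaving out mitochondrial genes gave 3 members called higher and 0 lower, beside 9.27% and 11.7%, 8.63% and 11.3%, and 2.99% and 4.60% of all genes and, without mitochondrial genes, 1345 and 1898 of 15830 genes. A filter at a mean of 1 CPM called 3 higher and 1 lower, beside 13.5% and 15.5%, and 1 was called lower by limma-voom and without Visudyne 3 and 5, Axin1 in both of the last. DESeq2 called 5 higher and 1 lower. With total counts, which moved the median of all genes from 0.010 to -0.19, 1 member was called higher and 5 lower, and 3 pathway genes higher and 30 lower. With the GC trend removed 3 pathway genes were called higher and 4 lower. With the slope on GC content as covariate 0 members and 0 pathway genes were called by edgeR (5 members at an unadjusted p under 0.05), likewise 0 with 1 surrogate variable (5 members), and 0 with the GC trend removed and Visudyne 3 or vehicle 6 left out (6 members each). Of all genes, 1 was then called with 1 surrogate variable, 4 without Visudyne 3 and 2 without vehicle 6. DESeq2 and limma-voom were not run with those terms. Leaving out 1 library gave 0 to 4 members higher, 0 to 2 lower, 0 to 21 pathway genes higher and 0 to 22 lower, beside 0.0311% to 13.6% of all genes higher and 0.0310% to 17.9% lower. Members called higher were 0 without vehicle 6, 1 without Visudyne 3, 2 without Visudyne 1, Visudyne 4 or vehicle 9, and 2 were called lower without Visudyne 5 or vehicle 10. Pathway genes called higher and lower were 0 and 0 without Visudyne 3 or vehicle 6, and 1 and 0 without vehicle 9. Members outside the naming rule given above also turned sign and are not listed in full. Among them were Axin1, at 0.059 with the slope on GC content as covariate, and Fzd2, at 0.34 with the GC trend removed. For the genes named by that rule, the sign of a log2 fold change turned as follows. With the GC trend removed, Axin2 was at 0.0622, Lrp5 at 0.0472, Wnt7a at 0.109, Wnt7b at 0.0621, Dkk3 at 3.83e-05, Rnf43 at 0.185, Pygo2 at 0.0733 and Mapk8 at -0.0432. With Visudyne 3 also left out, Fzd3 was at -0.0275, Axin2 at 0.0407, Lrp5 at 0.147, Lrp6 at -0.00909, Wnt7a at 0.186, Wnt7b at 0.0864, Dkk3 at 0.00859, Rnf43 at 0.208, Pygo2 at 0.0497, Mapk8 at -0.0786 and Wls at -0.0186. With vehicle 6 left out in its place, Axin2 was at 0.0593, Wnt7a at 0.136, Wnt7b at 0.0824, Rnf43 at 0.211, Pygo2 at 0.0715 and Mapk8 at -0.0318. With the slope on GC content as covariate, Lgr4 was at -0.0679, Lrp5 at 0.136, Wnt7b at 0.347, Wnt5a at -0.0858, Znrf3 at -0.0196, Smarca4 at 0.108, Cby1 at 0.0817, Aes at 0.116, Id2 at -0.00451, Tcf7l2 at -0.0417, Wls at -0.122 and Porcn at 0.137. With 1 surrogate variable, Lgr4 was at -0.0149, Lrp5 at 0.12, Wnt7b at 0.113, Wnt5a at -0.0148 and Wls at -0.0103. With total counts, Lrp6 was at -0.102, Wnt5a at -0.0852, Sfrp1 at -0.127 and Znrf3 at -0.0692. Sfrp1 was at -0.203 without Visudyne 3 and 5, and lay between -0.059 and 0.226 when 1 library was left out, turning sign without Visudyne 3 (-0.0483), Visudyne 5 (-0.0109) or vehicle 10 (-0.059). The cause of these changes was not tested. No paired analysis was possible because the replicate numbers run from 1 to 5 in Visudyne and 6 to 10 in vehicle.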
